A study of Mus musculus with 12 samples.

Results

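The 10 lipid droplet and lipolysis genes examined here encode droplet coat proteins (Plin1, Plin2, Plin4, Plin5 and Cidec), the lipases Pnpla2, Lipe and Mgll, the lipase activator Abhd5 and the glycerol channel Aqp7. They were taken by the gene symbol of their probe sets. Of the 10 genes 9 had a probe set named to 1 gene, 18 probe sets in all, out of 45101 probe sets and 18194 genes. Plin1, which encodes the coat protein that guards the droplet surface of white adipocytes, had none and was not analysed here.

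Female mice on a C57BL/6 background gave the RNA, taken from their abdominal fat pads. They were either p47phox null, lacking the organizer subunit of the phagocyte NADPH oxidase encoded by Ncf1, or wild type. The 4 groups were null mice on a high fat diet (HFD), wild type mice on HFD, null mice on casein and wild type mice on casein, with 3 pools of fat pads in each and 1 Affymetrix array per pool. All mice started their diet at postnatal day 28 and ate it for 13 weeks. The labels give neither the allele nor the number of animals in a pool, and 1 protocol names rats where every other label names mice. Since pools and not animals were measured, p-values reflect the spread between pools. The deposited values are log2 values from which the median of each probe set over the 12 arrays was already removed, so a value of 0 is the middle pool and no value is an expression level. For the same reason, the presence of adipocyte markers could not be checked as a level. The number of arrays limits the precision.

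White adipocytes store triglyceride in 1 large droplet whose surface is covered by perilipins and CIDE proteins. On demand the droplet is broken down in steps. ATGL, the product of Pnpla2, with its activator CGI-58 (Abhd5) removes the first fatty acid, hormone-sensitive lipase (Lipe) the next and monoglyceride lipase (Mgll) the last, and the glycerol left over leaves the cell through AQP7. Many of these genes are targets of the nuclear receptor PPARG, which as a pair with RXR binds repeats of the half-site AGGTCA.

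Start regions are shown for the gene that passed the test on HFD, Aqp7, and for Plin4, the coat protein gene with the largest difference there. Both are from RefSeq (GRCm38.p6), cover 250 bases before and 50 after an annotated start and are written 5′ to 3′ on the strand of the gene, with each AGGTCA in either orientation in capitals.
Aqp7, chr4:41047913-41048212, minus strand: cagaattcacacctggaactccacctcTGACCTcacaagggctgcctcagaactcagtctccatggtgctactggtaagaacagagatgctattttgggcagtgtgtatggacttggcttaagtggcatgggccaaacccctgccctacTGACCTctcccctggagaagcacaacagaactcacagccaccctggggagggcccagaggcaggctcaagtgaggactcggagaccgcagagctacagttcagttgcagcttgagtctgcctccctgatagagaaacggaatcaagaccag
Plin4, chr17:56109733-56110032, minus strand: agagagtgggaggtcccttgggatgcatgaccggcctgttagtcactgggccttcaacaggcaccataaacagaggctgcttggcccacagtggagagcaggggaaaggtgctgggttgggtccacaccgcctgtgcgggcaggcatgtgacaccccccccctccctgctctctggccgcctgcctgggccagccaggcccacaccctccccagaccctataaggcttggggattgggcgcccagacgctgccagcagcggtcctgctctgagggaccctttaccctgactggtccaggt
The Aqp7 window held 2 matches, both in the reverse orientation (TGACCT), which began 223 and 101 bases before the start. The window of the other Aqp7 start, which overlaps it, held 1, and the Plin4 window held 0. That 1 match is the same site as the one at 223 bases, so it counts in both Aqp7 windows. Of all 10 genes, 4 had a match in a window (Abhd5, Aqp7, Plin2 and Plin5), in 6 of 15 windows, while 16.3% of the 32851 windows of all genes held one. The direct repeat of the half-site with 1 base of any kind between the copies, which contains the half-site, was in 0 of the 15 windows and in 0.0396% of all. These counts describe letters and not binding.

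Ncf1 was read first, as the gene disrupted in the null mice. Its centred value lay between -0.29 and -0.19 in the 6 null pools, below the 0.07 to 0.85 of the 6 wild type pools. Among markers of other tissues, the median of 14 skeletal muscle genes was 4.57 in wild type HFD pool 2 and 3.67 in null HFD pool 1, and that of 12 liver genes was 4.59 in wild type casein pool 3. Smaller rises were not confined to these pools. Muscle stood at 2.77 in wild type casein pool 1 and 1.82 in null casein pool 1, and liver at 1.44 in wild type HFD pool 3. Adrenal markers stood at 2.61 in wild type casein pool 3 and kidney markers at 1.51 in null casein pool 3.

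Null and wild type pools on HFD were set side by side to see how loss of p47phox bears on fat under that diet. Aqp7 fell in the null pools, by 2.25-fold, and was the 1 gene of 9 to pass. Across all genes 5.92% passed in either direction and 2.71% were lower in null pools (493 lower and 584 higher; 73 and 9788 with arrays centred on adipocyte markers), and 1 call among 9 genes says nothing of the group as a whole. An unadjusted p under 0.05 was found for 6 of the 9 genes in limma, against 24.9% of all genes. The differences of 8 of the 9 genes lay below 0, against 56.6% of all genes, with a median of -0.39 over the 9 and -0.03 over all genes. With the reproductive tract median as covariate 6 of 9 lay below 0, and 4 of 9 with the tissue covariates. Adipocyte centring shifts all genes of a comparison alike. It moved the median of all genes to 0.45 and that of the 9 to 0.09, and 4 of 9 then lay below 0. The groups did not overlap for 6 of the 9, all lower in null pools, against 17.3% of all genes.

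**Figure D1:**
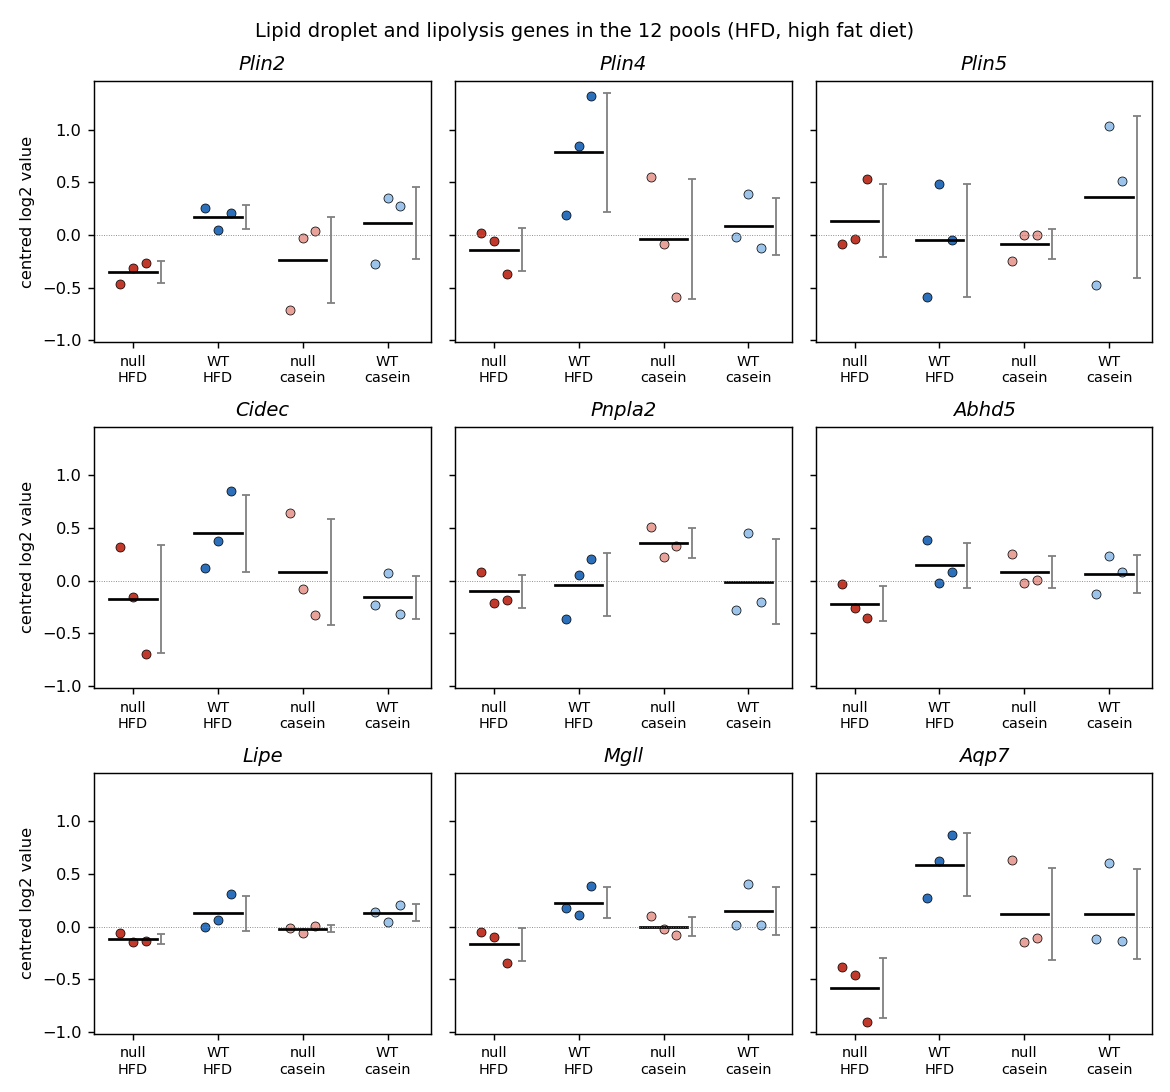
Centred log2 value of each of the 9 genes (vertical axis) in the 12 pools of the 4 groups; points are pools, black bars group means and grey bars SD (n = 3). For Aqp7 the 3 null HFD pools lie between -0.90 and -0.38, below every other pool, and the 3 wild type HFD pools between 0.27 and 0.87.

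Aqp7, the channel through which adipocytes release glycerol, was at -0.38, -0.46 and -0.90 in null HFD pools 1, 2 and 3, and at 0.27, 0.62 and 0.87 in wild type HFD pools 1, 2 and 3. No pool of one genotype reached the range of the other, and the null pools were the lowest of all 12. The group means were -0.58 ± 0.28 in null and 0.59 ± 0.30 in wild type pools (SD, n = 3 each), so Aqp7 fell by 1.17 ± 0.27 (SE of the limma fit; adjusted p = 0.0361), which is 2.25-fold. Every probe set was also tested on its own, and 1634 of 34958 passed. Both Aqp7 probe sets were among them, 1418848_at at -1.20 ± 0.29 (limma adjusted p = 0.0462) and 1418849_x_at at -1.14 ± 0.26 (limma adjusted p = 0.0391). The highest-mean probe set of a gene was picked on centred values, so it need not be the brightest. With each gene read from that probe set, the call ended (limma adjusted p = 0.051), as it did with the pool number as a block (0.0588) and without the 3 pools that stand apart in muscle or liver markers (0.0877). It also ended without null HFD pool 2 or 3 (limma adjusted p = 0.102 and 0.143), wild type HFD pool 1, 2 or 3 (0.0594, 0.0875 and 0.116) or null casein pool 2 (0.0525), with differences from -1.32 to -1.01.

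Among the coat proteins, Plin4, which sits on small nascent droplets of adipocytes, had the widest gap. It was at 0.01, -0.06 and -0.37 in null HFD pools 1, 2 and 3, and at 0.19, 0.84 and 1.32 in wild type HFD pools 1, 2 and 3. The groups did not overlap, but the wild type pools spread over more than a log2 unit, and the difference of -0.92 ± 0.31 did not pass (limma adjusted p = 0.102). Plin2, the coat protein found on droplets of most cell types, including macrophages and steroid-making cells, was at -0.46, -0.32 and -0.26 in null and at 0.26, 0.04 and 0.21 in wild type HFD pools. Its groups did not overlap either, and its difference was -0.52 ± 0.20 (limma adjusted p = 0.147). Cidec, the CIDE protein through which droplets fuse into 1 large droplet, was at 0.32, -0.15 and -0.69 in null and at 0.12, 0.38 and 0.85 in wild type HFD pools. Here null pool 1 lay inside the wild type range, and the difference was -0.63 ± 0.30 (limma adjusted p = 0.227), and -0.37 without null HFD pool 3. Plin5, the coat protein of oxidative tissues such as heart, muscle and brown fat, was the 1 gene with a difference above 0, at 0.19 ± 0.36 (limma adjusted p = 0.805). Its pools were at -0.08, -0.04 and 0.53 in null and at -0.59, 0.48 and -0.05 in wild type mice, and they overlapped. Plin4 and Plin5 are neighbouring genes on chromosome 17.

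Of the lipolysis genes none passed as the mean of its probe sets, and the differences were smaller than those of Aqp7 and Plin4. Mgll, the last lipase of the chain, was at -0.05, -0.10 and -0.35 in null HFD pools 1, 2 and 3, and at 0.18, 0.11 and 0.39 in wild type HFD pools 1, 2 and 3. The groups did not overlap, and the difference was -0.39 ± 0.13 (limma adjusted p = 0.0873). Abhd5, the activator of ATGL, was at -0.03, -0.26 and -0.36 in null and at 0.39, -0.02 and 0.08 in wild type HFD pools. The groups did not overlap, though null pool 1 and wild type pool 2 lay close, and the difference was -0.36 ± 0.14 (limma adjusted p = 0.134). Lipe, hormone-sensitive lipase, was at -0.06, -0.14 and -0.14 in null and at -0.004, 0.06 and 0.31 in wild type HFD pools. These groups did not overlap, and the difference was -0.24 ± 0.09 (limma adjusted p = 0.117), and -0.14 without wild type HFD pool 3. Pnpla2, which encodes ATGL and starts the breakdown, was at 0.08, -0.21 and -0.18 in null and at -0.37, 0.06 and 0.20 in wild type HFD pools. These ranges overlapped, and the difference was -0.07 ± 0.20 (limma adjusted p = 0.881).

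The probe sets of a gene did not always move together. Tested one by one on HFD, 1634 of 34958 probe sets passed in either direction, with adjustment over all of them. Of the 4 Mgll probe sets 1 passed, 1426785_s_at at -0.51 ± 0.13 (limma adjusted p = 0.0488). Another pair, 1450391_a_at and 1453836_a_at, stood at -0.43 ± 0.12 and -0.64 ± 0.18 (limma adjusted p = 0.0723 and 0.0684), while 1431331_at stood at 0.01 ± 0.13. Lipe showed the same kind of split, with 1422820_at at -0.48 ± 0.14 (limma adjusted p = 0.0733) and 1432180_at at -0.003 ± 0.14. In 1432180_at the highest pools were wild type casein pools 1 and 3, at 0.49 and 0.43, and the other 10 lay between -0.14 and 0.14. The mean over probe sets used for Mgll and Lipe therefore holds 1 probe set each that showed no difference of a size like the others. For Abhd5 all 3 probe sets were below 0, from -0.54 to -0.19, but only 1417565_at kept the genotypes apart on HFD. For Pnpla2 the pair stood at 0.07 and -0.21. Plin2, Plin4 and Cidec rest on 1 probe set each.

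**Figure D2:**
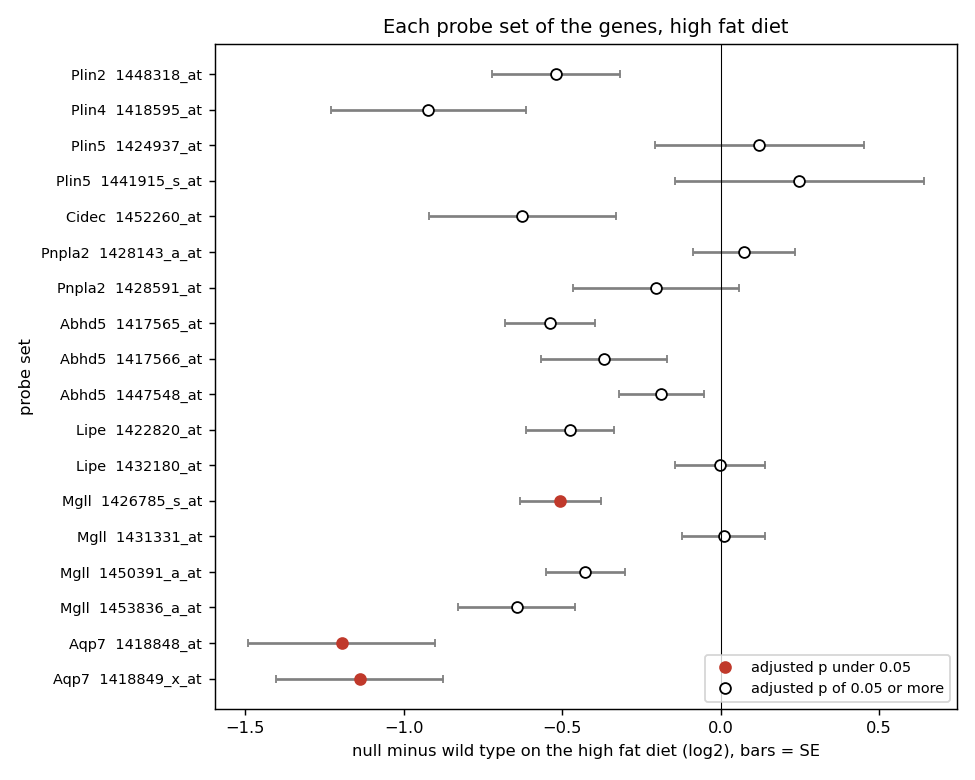
Null minus wild type difference on HFD (log2, horizontal axis) of each of the 18 probe sets, with SE; filled points have a limma adjusted p under 0.05. The filled points are both Aqp7 probe sets, at -1.20 and -1.14, and Mgll 1426785_s_at, at -0.51. Of all 34958 probe sets 1634 passed in either direction.

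Genes that act beside these were taken from 4 lists, on droplet structure and lipase control, triglyceride synthesis, other lipases, and cAMP signalling, of which 33 of 38 genes were measured. Of the 33 genes 4 fell and 0 rose in null pools on HFD, where 2.71% of all genes were called lower, with a median of -0.26, against -0.03 over all genes. Of 16 genes of droplet structure and lipase control 2 fell, Cav1, a caveolin of the adipocyte surface that also reaches droplets, by 0.65 ± 0.13 (limma adjusted p = 0.0263), and Ldah, a droplet-associated hydrolase, by 0.36 ± 0.09 (limma adjusted p = 0.045). Of 7 genes of triglyceride synthesis 1 fell, Dgat2, which joins the last fatty acid, by 0.70 ± 0.16 (limma adjusted p = 0.0365). Its pools were at -0.44, -0.34 and -0.36 in null and at 0.43, 0.20 and 0.34 in wild type HFD mice. Of 5 other lipases and fatty acid genes 1 fell, Lpl, the lipase that brings fatty acids in from the blood, by 0.51 ± 0.13 (limma adjusted p = 0.0478), and of 5 cAMP signalling genes 0 passed. Named after their values were seen, G0s2, which inhibits ATGL, had the lowest difference of the 33, at -0.85 (limma adjusted p = 0.0773), and Ces1f and Hsd17b11 the highest, at 0.44 and 0.32, none of them past the test. Each of the 4 calls, of Cav1, Ldah, Dgat2 and Lpl, ended without null HFD pool 2 or 3 or any wild type HFD pool. Those of Dgat2, Ldah and Lpl also ended without null casein pool 2, that of Dgat2 without null HFD pool 1, those of Ldah and Lpl without wild type casein pool 3, and that of Lpl without wild type casein pool 2 or null casein pool 3. The limma adjusted p then ran from 0.0554 to 0.098 for Cav1, from 0.0527 to 0.161 for Ldah, from 0.0545 to 0.121 for Dgat2 and from 0.0504 to 0.169 for Lpl. All 4 calls also ended with the tissue covariates and with the reproductive tract median alone (limma adjusted p from 0.707 to 0.996), those of Cav1, Dgat2 and Lpl with adipocyte centring (0.222, 0.387 and 0.889), and those of Ldah, Dgat2 and Lpl without the 3 pools (0.0771, 0.101 and 0.0612). Quantile normalization again ended those of Ldah and Dgat2 (0.0555 and 0.0603), and only the pools compared those of Ldah and Lpl (0.0538 and 0.0695). The block and the widest-span probe set ended that of Ldah (0.0557 and 0.0545), and the highest-mean probe set that of Lpl (0.13).

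**Figure D3:**
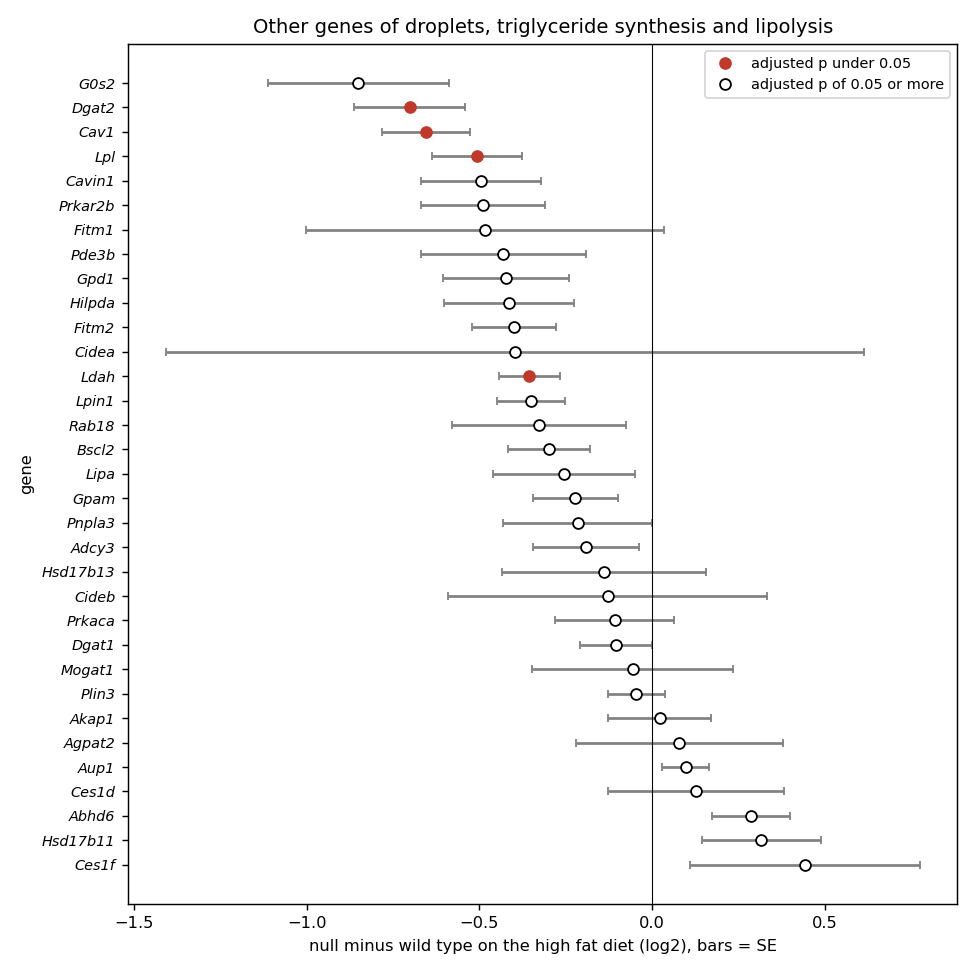
Null minus wild type difference on HFD (log2, horizontal axis) of the 33 other genes of droplets, triglyceride synthesis and lipolysis, with SE, sorted by size; filled points have a limma adjusted p under 0.05. Filled points are Dgat2, Cav1, Lpl and Ldah, between -0.70 and -0.36, and 26 of the 33 genes lie below 0. Of all genes 2.71% were called lower and 56.6% lie below 0.

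Markers of several cell types moved between the same pools. In bulk tissue fewer cells of a type and less RNA per cell cannot be told apart. The median of 11 adipocyte markers outside the 9 genes was between -0.55 and -0.03 in null and between 0.12 and 0.30 in wild type HFD pools, and 3 of the 11 fell (Lep, Pparg and Cebpa). The median of 10 ovary markers was between 0.10 and 0.72 in null and between -0.88 and -0.56 in wild type HFD pools, and 5 of the 10 rose. The median of 8 oviduct and uterus markers was between 0.24 and 0.62 in null and between -0.30 and -0.15 in wild type HFD pools, with 0 of 8 past the test. The median of 8 endothelial markers was between -0.24 and -0.06 in null and between 0.23 and 0.55 in wild type HFD pools, and 2 of the 8 fell. That of 10 macrophage markers was between -0.08 and 0.03 in null and between -0.04 and 0.66 in wild type HFD pools, with 0 of 10 past the test. With the median of the ovary, oviduct and uterus markers as the only covariate, chosen after seeing the data, the Aqp7 difference was -0.46 (limma adjusted p = 0.899) and 0 of the 18194 genes passed. With the skeletal muscle and liver medians added it was -0.11, and Cidec, Pnpla2, Abhd5 and Mgll then lay above 0, at 0.30, 0.75, 0.13 and 0.10, none past the test. The reproductive tract markers separate the genotypes on this diet, so their part in the result and that of the genotype cannot be told apart. The part of the endothelial and macrophage markers was not tested. With each array centred on the adipocyte markers, which moved the median of all genes to 0.45, Aqp7 stood at -0.68 (limma adjusted p = 0.0289).

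**Figure D4:**
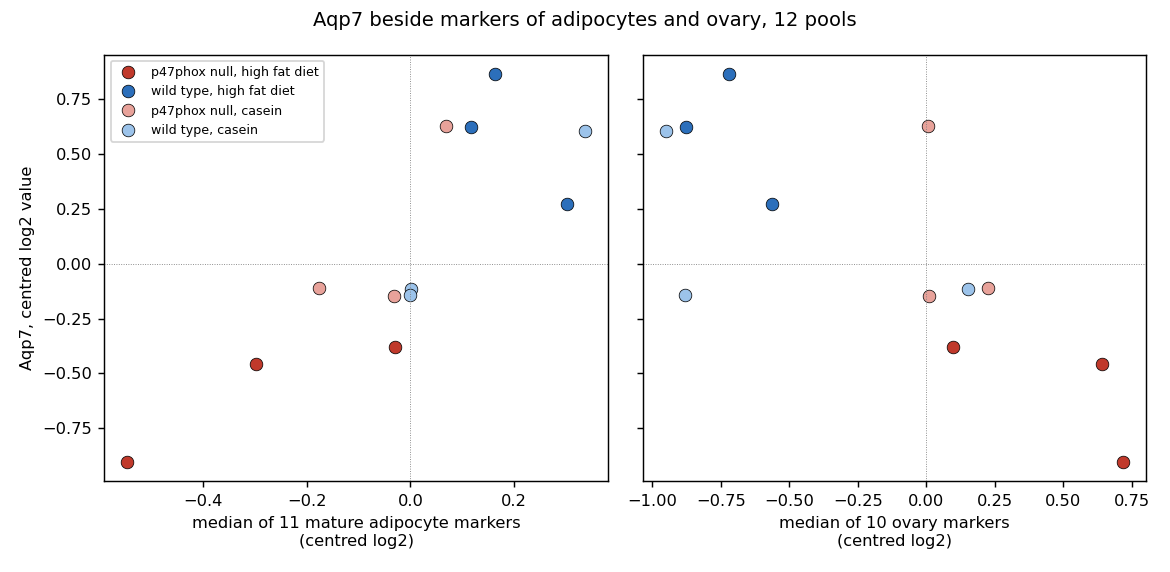
Aqp7 (vertical axis, centred log2 value) against the median of 11 adipocyte markers and of 10 ovary markers (horizontal axes, centred log2) in the 12 pools, coloured by group. The null HFD pools, with Aqp7 between -0.90 and -0.38, have ovary medians between 0.10 and 0.72, and the wild type HFD pools between -0.88 and -0.56.

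On casein the genotypes were compared to ask what loss of p47phox does without the high fat diet. None of the 9 genes passed in limma, at adjusted p from 0.647 to 0.999, and 0 of all genes did (0%), while 0 of the 9 and 8.12% of all genes had an unadjusted p under 0.05. Aqp7 was at 0.63, -0.15 and -0.11 in null casein pools 1, 2 and 3, and at -0.11, 0.61 and -0.14 in pools 1, 2 and 3 of wild type mice on casein. In each genotype 1 pool was high, and the means were 0.12 in both. Pnpla2 was at 0.51, 0.23 and 0.33 in null and at -0.28, 0.45 and -0.20 in wild type casein pools, a difference of 0.37 ± 0.20 (limma adjusted p = 0.647), which was 0.23 and 0.60 without wild type casein pools 1 and 2. Its null pools were close together while wild type pool 2 lay among them. Plin5 had the widest spread in wild type casein pools, at -0.48, 1.04 and 0.51, beside -0.25, -0.003 and 0.003 in null casein pools. Its difference was -0.44 ± 0.36 (limma adjusted p = 0.746), and -0.86 and -0.10 without wild type casein pools 1 and 2. For Lipe, the groups did not overlap, at -0.01, -0.06 and 0.01 in null and at 0.14, 0.05 and 0.21 in wild type casein pools. It was the 1 gene of 9 with all null pools lower, a pattern that 6.57% of all genes showed. Neither Lipe probe set showed it alone, since 1422820_at was at 0.02, -0.11 and 0.02 in null and at -0.21, 0.23 and -0.02 in wild type pools on casein, so the separation arose in their mean.

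**Figure D5:**
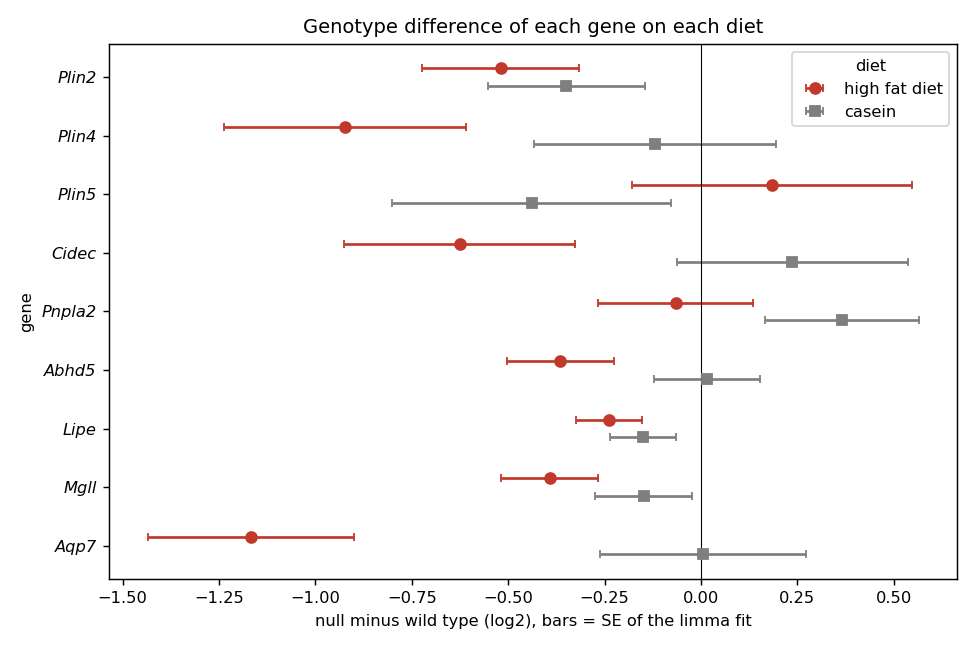
Null minus wild type difference (log2, horizontal axis) of each of the 9 genes on HFD and on casein, with SE of the limma fit. On HFD Aqp7 stands at -1.17 and 8 of the 9 genes lie below 0; on casein the 9 differences lie between -0.44 and 0.37.

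The diets were compared within each genotype to ask how the fat responds to the high fat diet. In null pools none of the 9 genes passed in limma, nor did any of all genes (0%), and 2 of the 9 had an unadjusted p under 0.05, against 4% of all genes. Those were Aqp7, at -0.70 ± 0.27, and Pnpla2, at -0.46 ± 0.20, both with limma adjusted p = 0.9996. The difference lay below 0 for 8 of the 9 genes, against 50.1% of all genes. All 3 HFD pools lay below all 3 casein pools for 4 of the 9 genes, Aqp7, Pnpla2, Lipe and Abhd5, against 5.7% of all genes. For Lipe neither probe set separated the diets on its own, for Aqp7 1 of its 2 did, and for Abhd5 only 1417565_at did. In the same comparison 11 of 11 adipocyte markers lay below 0 and 10 of 10 ovary markers above 0. With the reproductive tract median as covariate 6 of the 9 genes lay below 0, and 5 with the tissue covariates. With adipocyte centring, which moved the median of all genes to 0.24, 4 of the 9 did. The cause was not tested. The Aqp7 difference was -0.45 without null casein pool 1, where Aqp7 was high. In wild type pools 0 of the 9 genes passed in limma, with 1 of 9 at an unadjusted p under 0.05, and across all genes 0% passed and 7.61% had an unadjusted p under 0.05. That gene was Plin4, with a difference of 0.70 ± 0.31 (limma adjusted p = 0.652). Without wild type HFD pool 3, where Plin4 was highest, its difference was 0.44. The Cidec pools did not overlap, at 0.12, 0.38 and 0.85 on HFD and at -0.23, 0.07 and -0.31 on casein, a difference of 0.61 ± 0.30 (limma adjusted p = 0.677). Such a rise without overlap was seen in 7.07% of all genes.

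The response to the diet was then compared between the genotypes, null minus wild type. None of the 9 genes passed in limma, and 1 of 9, Aqp7, had an unadjusted p under 0.05, against 0% passed and 6.12% unadjusted over all genes. For 8 of the 9 genes the value lay below 0, against 51% of all genes, with a median of -0.38 over the 9. With the reproductive tract median as covariate 8 of 9 lay below 0 (median -0.18), and 6 of 9 with the tissue covariates (median -0.07). With adipocyte centring, which moved the median of all genes to 0.32, 5 of 9 did. The cause was not tested. Aqp7 had -1.17 ± 0.38 (limma adjusted p = 0.789), Cidec -0.86 ± 0.42 and Plin4 -0.80 ± 0.44 (limma adjusted p = 0.791 for both). The Plin4 value was -0.51 without null casein pool 1. These comparisons share the HFD pools with those above and are not separate evidence.

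Averaged over both diets, null minus wild type, 0 of the 9 genes passed in limma, where 7.52% of all genes did, and 5 of the 9 had an unadjusted p under 0.05, against 25.6% of all genes. The difference lay below 0 for 8 of the 9 genes, against 57.1% of all genes, with a median of -0.20 over the 9. It did so for 4 of 9 with the reproductive tract median as covariate and 2 of 9 with the tissue covariates (median over the 9 of 0.003 and 0.14). Adipocyte centring, which shifts all genes alike, moved the median of all genes from -0.02 to 0.30 and that of the 9 to 0.13. With it 3 of 9 lay below 0. The smallest adjusted p were those of Lipe at -0.20 ± 0.06 (limma adjusted p = 0.0753), Aqp7 at -0.58 ± 0.19 (0.0851), Mgll at -0.27 ± 0.09 (0.0896) and Plin2 at -0.43 ± 0.14 (0.0913). Plin2 passed without wild type casein pool 1, at -0.53 (limma adjusted p = 0.0284), and Aqp7 without null casein pool 1, at -0.71 (0.0381). Among the 33 other genes of the pathway 5 fell in this average (3.42% of all genes were lower), Cav1, Dgat2 and Lpl again, with Gpd1, which makes the glycerol phosphate for triglycerides, by 0.54, and Lpin1, the phosphatidate phosphatase, by 0.32. The Gpd1 call ended without null HFD pool 2 or 3, wild type HFD pool 1 or 2, or pools 2 and 3 of either genotype on casein (limma adjusted p from 0.0598 to 0.0895). Both calls also ended with the tissue covariates, with the reproductive tract median and without the 3 pools, that of Gpd1 with adipocyte centring, the widest-span probe set or quantile normalization again, and that of Lpin1 with the highest-mean probe set. With adipocyte centring Lpin1 lay at 0.0057. Its call further ended without null HFD pool 2 or 3, any wild type HFD pool, null casein pool 2 or 3 or wild type casein pool 2 (limma adjusted p from 0.0518 to 0.0746). High fat diet minus casein averaged over both genotypes gave 0 of 9 genes in limma, with 0 at an unadjusted p under 0.05, against 0.0055% and 5.23% of all genes, and a median of -0.05, which was -0.12 and 0.02 without wild type casein pools 1 and 2.

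The median of the 9 genes in each pool was between -0.35 and -0.05 in null HFD pools, between 0.11 and 0.31 in wild type HFD pools, between -0.03 and 0.26 in null casein pools and between -0.12 and 0.39 in wild type casein pools. The genes whose values over the 12 pools were most like this median were Bhlhe41, Hacd2, 2810414N06Rik, Cgnl1, Dgke, Grk5, Notch4, Tmem273, Inka1 and Sik2, chosen from all other genes by their Pearson correlation, which ran from 0.934 to 0.956. This is a description of 12 pools with no test, and 0 of the 10 passed in the comparison of genotypes on HFD, where their differences lay between -0.52 and -0.23.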

How the data were processed

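Total RNA of abdominal fat pads (8 µg per labelling reaction, per the labels' protocols) was measured on 12 arrays of 45101 probe sets. GCOS and RMA are the tools named, per the submitters' processing notes; their order and settings are not given in the sources used here. The authors deposited log2 values, each probe set centred on its median over the 12 arrays (largest departure 5e-07); base 2 was taken because RMA gives it. Levels and signal over background are thus lost, and no filter on dim probes could be made.

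The platform annotation names 1 gene for 34958 probe sets, several for 932 and none for 9211; the first kind was used, and 34754 were given current symbols through RefSeq. Probe sets of 1 gene were averaged. The 18194 genes were fitted with limma 3.58.1 in R 4.3.3, as 4 group means over all 12 arrays (8 residual and 2.50 prior degrees of freedom), with two-sided p-values adjusted over all genes by Benjamini-Hochberg and a threshold of 0.05. The 7 comparisons were the 4 simple ones, the interaction and both averages. The fit was tested on simulated data. Members, lists, tests and alternatives were chosen with earlier results of these data known. All members were named, and of other pathway genes the largest changes past the threshold, up to 3 each way per list. Same-numbered pools did not pair across the groups as a whole: 3 of 18 pairs of deviations correlated above 0.1. Between null HFD and null casein, pools 1 and 3 correlated at 0.55 and 0.59 with the pool of the same number, and pool 2 at -0.01. Each pool was left out in turn, and 13 other alternatives were run besides 1 added later. The alternative with the highest-mean probe set ranked centred values, so it was no choice by signal.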

Additional observations from a re-analysis of the deposited data

How the results depend on the processing

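The count of genes passing on HFD, 1 of 9, was 0 with the pool number as a replicate block (Aqp7 adjusted p = 0.0588; 542 in place of 1077 of all genes), 0 with each gene read from its highest-mean probe set, 0 with the tissue covariates, 0 with the reproductive tract median alone and 0 without the 3 pools that stand apart in muscle or liver markers. It was 2 with every probe set on its own (Mgll added), where 7.2% of all genes passed. There each gene was read from its probe set of lowest p, which favours genes with several probe sets, such as Mgll with 4. It was 2 with only the pools compared (Plin2 added), where 6.01% of all genes passed, and 7 with array weights, where 28.1% did. Leaving out 1 pool gave 0 to 2. The block changed no count of these 9 genes in the other comparisons. The array weights had not converged. In the genotype average the count was 1 with adipocyte centring (Pnpla2, higher in null pools), where 40.7% of all genes passed. It was 4 with array weights (Aqp7, Lipe, Mgll and Plin2, all lower), where 22% of all genes passed, and 0 to 1 without 1 pool. For the diet in null pools it was 1 with array weights (Pnpla2), where 5.18% of all genes passed. Of all genes, 1077 passed on HFD, against 655 with quantile normalization again, 9861 with adipocyte centring, 5120 with array weights, 2 with the tissue covariates, 0 with the reproductive tract median, 440 without the 3 pools and 0 to 1617 without 1 pool (0 without null HFD pool 2 or 3). In the genotype average 1368 passed, against 829 with the block, 7398 with adipocyte centring (83 lower and 7315 higher, in place of 623 and 745), 4009 with array weights, 13 with the tissue covariates, 0 with the reproductive tract median, 548 without the 3 pools and 157 to 2339 without 1 pool.

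Of the single differences given in the text, these turned direction, none past the test. On HFD Plin5 was at -0.036 with array weights and at -0.014 without null HFD pool 3, and ran from -0.083 (wild type HFD pool 1 left out) to 0.45 over the pools left out. Pnpla2 was at 0.073 with its highest-mean probe set, and ran from -0.23 to 0.054 (wild type HFD pool 3 left out). With the tissue covariates the values were 0.30 for Cidec, 0.75 for Pnpla2, 0.13 for Abhd5 and 0.10 for Mgll, and with the reproductive tract median alone 0.25 for Cidec and 0.40 for Pnpla2. With adipocyte centring, which moved the median of all genes to 0.45, they were 0.42 for Pnpla2, 0.25 for Lipe, 0.12 for Abhd5, 0.094 for Mgll and 0.13 for Ldah. In the genotype average Aqp7 was at 0.14 and Mgll at 0.063 with the tissue covariates. Lipe, Mgll and Lpin1 were at 0.13, 0.052 and 0.0057 with adipocyte centring, which moved the median of all genes to 0.30 there. The cause was not tested. Aqp7 stayed below 0 on HFD under all 26 alternatives, from -1.32 to -0.11, and lost its call in 11 of them. With 3 pools a group and centred values, neither levels nor signal over background can be read.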

Other observations

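Plin5 was highest in wild type casein pool 2, at 1.04, where the median of 6 brown or beige adipocyte markers was also the highest of the 12 pools, at 2.67. Cidea (named after its values were seen), a CIDE protein of brown adipocytes and itself 1 of the 6 markers, stood at 2.82. In wild type HFD pool 1, where Plin5 was lowest at -0.59, that marker median was -0.88. Null HFD pool 3 had Plin5 at 0.53 with a marker median of -0.52, and wild type casein pool 1 had Plin5 at -0.48 with a marker median of 0.73. Over the 12 pools Plin5 and the marker median had a Pearson correlation of 0.66. The part of brown or beige adipocytes in the Plin5 values was not tested.

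Null casein pool 1 stood high within its group for Aqp7 (0.63), Cidec (0.64) and Plin4 (0.55) and low for Plin2 (-0.71) and Dgat2 (-0.68).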
